A study of Mus musculus with 42 samples.

Results

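The network described here links sestrins to the kinase complex mTORC1, and it was taken as 46 genes named by their role: sestrins, the GATOR1, GATOR2 and KICSTOR complexes, Rag GTPases, Ragulator, folliculin with its partners, the TSC complex and Rheb, the mTOR complexes, S6 kinases and the subunits of AMP-activated protein kinase (AMPK). All 46 were found by symbol among the 13809 genes of the deposited table, and all 46 passed the filter on low values in both sets of libraries. Members were chosen by role, and the choice was made with earlier results of these data known.

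RNA of the tibialis anterior (TA), a fast muscle of the lower leg, was sequenced from 42 libraries of male C57BL/6J mice aged 4 months, and the libraries formed 11 groups of 3 or 4. Set 1 held non-transgenic WT littermates, Sesn1SkM-Tg mice (called TgSesn1 in the sample names), which carry human Sesn1 under the muscle MCK promoter, and Sesn2SkM-Tg mice (TgSesn2), in which a Tet-regulated human Sesn2 transgene is switched on by an MCK-driven tTA activator, each in the basal state and after immobilization. Set 2 held WT mice in the basal state, after immobilization and after denervation, and mice of the labelled genotype Sesn1-/- (called Sesn1KO here) in the basal state and after immobilization. For immobilization the right hindlimb was fixed with rigid sticks and a bandage, and for denervation a piece of the sciatic nerve was cut out. According to the methods muscles were taken 3 or 10 days after the procedure, the study's account of the sequencing names 3 days, and the labels give no time. The transgenes are driven in muscle fibers, whereas which part of Sesn1 the knockout allele lacks is not given in the sources used here. By the methods, mice without the procedure served as basal controls. Nothing in the sources used here says whether each library within a group came from a separate mouse. The p-values thus measure the spread between libraries, which may be technical.

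As background, amino acids lead the Rag GTPases to bring mTORC1 to the surface of the lysosome, where the small GTPase Rheb switches the kinase on. GATOR1 turns Rag signalling off, GATOR2 opposes GATOR1, and sestrins bind GATOR2 and hold it back when leucine is scarce. The TSC complex turns Rheb off, and AMPK, a sensor of low cellular energy, restrains mTORC1 through TSC2 and raptor. In skeletal muscle mTORC1 supports fiber growth and limits autophagy.

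Values are normalized counts deposited by the authors, on a linear scale. Two-sided tests used limma on log2(value + 1) within a set, all groups of the set sharing 1 estimate of spread. A gene was called when its adjusted p (Benjamini-Hochberg over the 13705 genes tested in set 1 or the 13629 in set 2) was under 0.05 and its log2 fold change was at least 0.25 in size. "Rose" and "fell" are used only for called genes. Fold changes are on the log2(value + 1) scale, which understates changes of low genes such as Sesn3. Depth cannot be read from these values, so no counting error is given.

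The table sums to between 722430 and 1276769 per library, with the lowest sums in denervated muscle (722430 to 811541). By mean correlation with their own groups over all genes, the least alike of the 42 libraries were WT basal replicate 4 and TgSesn2 basal replicate 2 of set 1 (0.9635 and 0.9655, highest 0.9893). TgSesn1 immobilized replicate 3 came next and hardly differed from them (0.9663). Counts for set 1 are therefore also given without the first 2 and without all 3, choices made after seeing the data. The fast fiber markers were high in every basal group (summed normalized counts of 104900 or more for 6 genes). In bulk RNA, fewer cells of a type and less RNA per cell cannot be told apart. The kit is not stated to keep strand, and 7 members share exon sequence with a gene on the opposite strand (Akt1s1, Itfg2, Lamtor1, Nprl3, Rps6kb1, Rps6kb2 and Tsc2), so their values can include reads of the partner. Reads of the near-identical Rraga and Rragb are shared out by estimation, and their split is uncertain.

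Promoter sequences are shown for 5 members whose transcripts moved in different ways, because letters known from lysosomal and stress-response genes occur in them. The 250 bases before the RefSeq start (build GRCm38.p6) were searched on both strands for CACGTG, the core that TFEB and related factors bind, for TGACNNNGC, the core of antioxidant response elements, and for GTAAACA, a core bound by FoxO factors. Of the 41 members with a promoter entry, 7 held CACGTG (Fnip1, Lamtor1, Lamtor4, Rheb, Rragb, Rragc and Tbc1d7), against 6.86% of 27025 genes. TGACNNNGC was found in 5 members (Fnip2, Kptn, Lamtor5, Rheb and Sesn2) against 11.5% of genes, and GTAAACA in Mapkap1 alone against 3.54%. Capitals mark CACGTG in the first 4 sequences and TGACNNNGC in Sesn2. Rheb also holds TGACNNNGC at 2 places, and 1 of them overlaps its CACGTG. Rheb lies at chr5:24842362-24842611 (minus strand), Rragc at chr4:123917183-123917432 (plus), Rragb at chrX:153139708-153139957 (plus), Fnip1 at chr11:54437929-54438178 (plus) and Sesn2 at chr4:132510457-132510706 (minus).
Rheb: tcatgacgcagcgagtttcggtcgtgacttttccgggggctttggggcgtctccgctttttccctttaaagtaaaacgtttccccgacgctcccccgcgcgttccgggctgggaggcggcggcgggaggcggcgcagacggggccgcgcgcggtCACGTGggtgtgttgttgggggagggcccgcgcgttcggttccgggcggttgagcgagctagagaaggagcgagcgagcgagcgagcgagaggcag
Rragc: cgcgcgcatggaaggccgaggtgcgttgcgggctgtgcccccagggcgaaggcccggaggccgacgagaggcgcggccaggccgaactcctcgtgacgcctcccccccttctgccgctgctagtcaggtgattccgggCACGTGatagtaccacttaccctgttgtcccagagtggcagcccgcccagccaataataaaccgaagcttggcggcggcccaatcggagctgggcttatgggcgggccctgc
Rragb: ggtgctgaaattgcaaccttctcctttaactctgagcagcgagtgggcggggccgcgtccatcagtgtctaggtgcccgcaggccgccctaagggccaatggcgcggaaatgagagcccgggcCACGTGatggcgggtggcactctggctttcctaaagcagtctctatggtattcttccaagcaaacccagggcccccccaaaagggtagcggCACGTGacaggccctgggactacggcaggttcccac
Fnip1: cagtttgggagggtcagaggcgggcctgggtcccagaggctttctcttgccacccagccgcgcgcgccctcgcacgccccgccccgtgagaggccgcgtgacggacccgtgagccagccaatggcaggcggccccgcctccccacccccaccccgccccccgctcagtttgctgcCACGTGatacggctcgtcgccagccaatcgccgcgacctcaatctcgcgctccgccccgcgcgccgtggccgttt
Sesn2: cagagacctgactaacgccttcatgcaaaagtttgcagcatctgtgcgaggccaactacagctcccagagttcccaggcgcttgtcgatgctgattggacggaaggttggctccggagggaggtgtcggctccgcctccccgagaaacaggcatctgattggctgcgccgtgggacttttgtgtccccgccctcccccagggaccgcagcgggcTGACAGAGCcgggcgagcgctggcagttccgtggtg
After denervation Rheb and Rragc rose while Rragb and Fnip1 fell, so members with these letters went both ways (values below). A match describes letters in a window and no binding was measured.

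**Figure D1:**
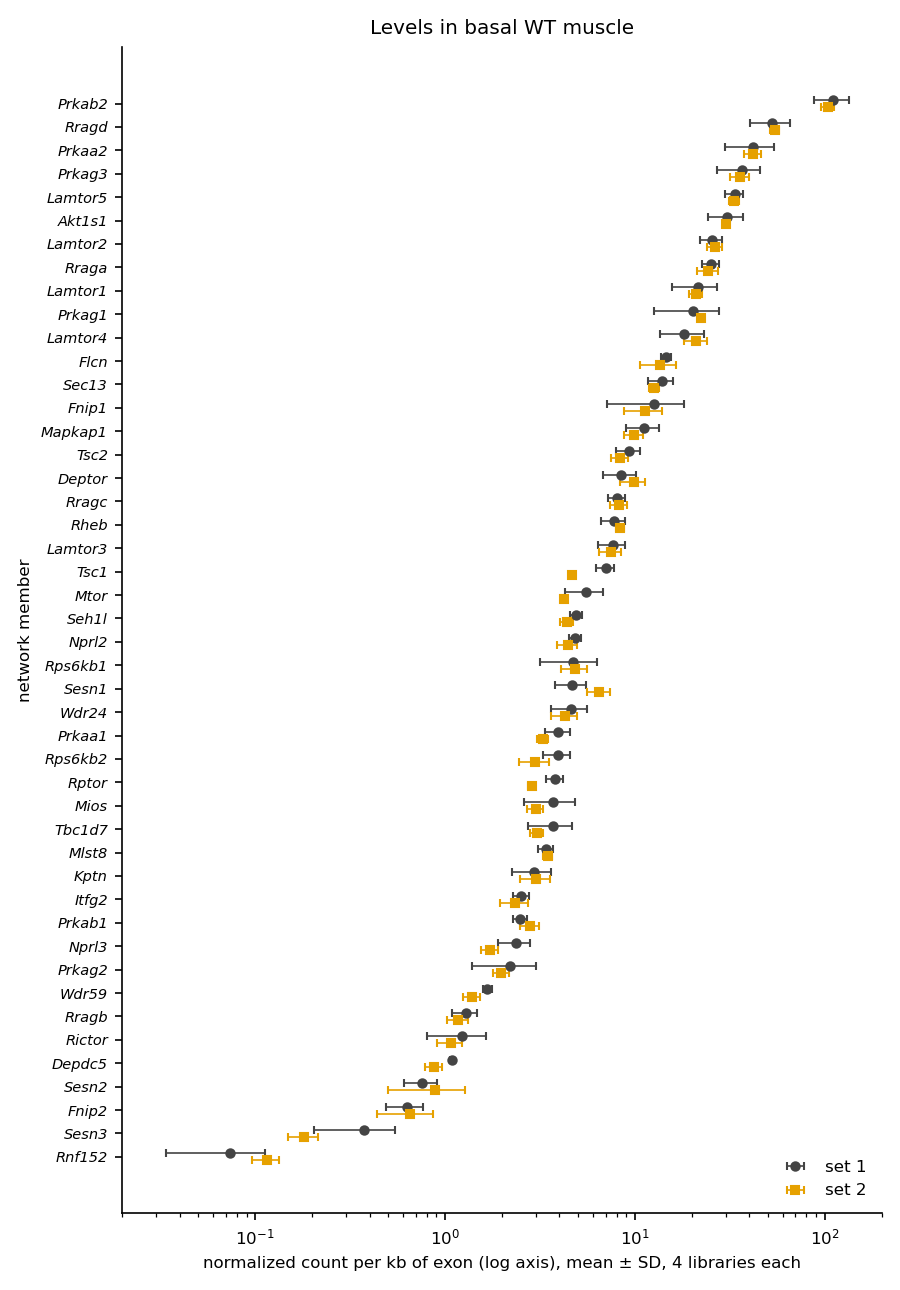
Normalized counts per kb of annotated exon (log axis, mean ± SD) of the 46 members in basal WT muscle, 4 libraries in each set. Prkab2, Rragd, Prkaa2 and Prkag3 lead in both sets, and Rnf152 and Sesn3 come last.

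In basal WT muscle the network was led by AMPK subunits and by 1 Rag. Per kb of annotated exon, Prkab2, the beta2 subunit, stood at 110.5 ± 22.9 in set 1 and 103.4 ± 7.86 in set 2 (SD, n = 4 each). Rragd, the RagD GTPase, followed at 52.7 ± 12.5 and 54.6 ± 3.00, then Prkaa2, the catalytic alpha2 subunit, at 41.98 ± 12.3 and 41.8 ± 4.31, and Prkag3, the gamma3 subunit known for fast muscle, at 36.5 ± 9.27 and 35.8 ± 4.02. Rragd, Prkaa2 and Prkag3 overlapped within 1 SD in set 1. Within the catalytic pair Prkaa2 exceeded Prkaa1 by a per-kb ratio of 10.6 ± 2.81 in set 1 and 12.8 ± 0.615 in set 2, and Prkab2 exceeded Prkab1 by 44.7 ± 11.1 and 37.2 ± 1.77.

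The other end of the order held 2 sestrins. Sesn1 stood at 4.65 ± 0.846 per kb in set 1 and 6.48 ± 0.922 in set 2, Sesn2 at 0.758 ± 0.151 and 0.884 ± 0.385, and Sesn3 at 0.373 ± 0.170 and 0.182 ± 0.0328. The per-kb level of Sesn1 was thus 6.30 ± 1.57 times that of Sesn2 in set 1 and 8.25 ± 2.92 times in set 2. Rnf152, a lysosomal ubiquitin ligase that acts on RagA, was lowest at 0.0735 ± 0.0395 and 0.115 ± 0.0184. Scaffolds of mTORC1 were in the middle, with Mtor at 5.55 ± 1.28 and 4.22 ± 0.0788 per kb and Rptor, which encodes raptor, at 3.79 ± 0.373 and 2.85 ± 0.129.

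The targeted genes were examined first. In set 1, Sesn1 was 20.6, 22.1, 16.4 and 14.98 normalized counts in WT basal muscle and 52.9, 77.6, 65.4 and 41.6 in Sesn1SkM-Tg basal muscle. The groups did not overlap and the log2 difference was 1.61 ± 0.22 (SE, adjusted p = 0.0021 by limma). Reads of the human transgene and of the mouse gene cannot be told apart in this table. It was the only member called between these groups, where 0.0292% of all genes were called, and the call was lost when the other groups were left out of the fit (adjusted p = 0.083).

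After immobilization Sesn1 was 51.1, 46.9 and 23.0 in Sesn1SkM-Tg muscle and 15.2, 12.4 and 13.1 in WT muscle. Every transgenic library was higher, but the difference of 1.43 ± 0.25 had an adjusted p of 0.091 by limma. No member was called, where 0.0073% of genes were. The unadjusted p lay under 0.05 for 3 of the 46 members, against 417 of 13705 genes. With TgSesn1 immobilized replicate 3 left out 1 member was called, and the share of all genes in that fit is not given here. With the 2 least alike libraries left out, 1 member was called as well, namely Sesn1 (adjusted p = 0.037, with 0.0146% of genes called).

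In Sesn2SkM-Tg muscle Sesn2 was 6.54, 10.9, 12.6 and 13.0 in the basal state, against 2.46, 2.5002, 3.39 and 2.18 in WT. After immobilization it was 13.6, 14.5, 11.8 and 8.01, against 2.76, 1.86 and 2.96. Neither pair of groups overlapped, with log2 differences of 1.66 ± 0.20 (adjusted p = 7.3e-05 by limma) and 1.86 ± 0.22 (adjusted p = 2e-04). Here too, human and mouse reads cannot be told apart.

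Sesn1 in libraries labelled Sesn1KO was lowered but not lost. It was 9.11, 10.05, 8.41 and 8.99 in the basal state, against 28.1, 22.5, 29.7 and 22.8 in WT, with no overlap and a log2 difference of -1.39 ± 0.17 (adjusted p = 0.00011 by limma). This was the only member called, where 0.147% of genes were called. After immobilization the libraries labelled Sesn1KO held 37.3, 27.7, 19.4 and 19.6 and the WT libraries 30.7, 41.0, 53.1 and 39.3. These groups overlapped through the library labelled Sesn1KO immobilized replicate 1, and the difference of -0.66 ± 0.17 was not called (adjusted p = 0.069 by limma). No member was called where 0.947% of genes were. The unadjusted p lay under 0.05 for 7 of the 46 members, against 1917 of 13629 genes. The count of called members was 1 without the library labelled Sesn1KO immobilized replicate 1 or without WT immobilized replicate 1. It was 2 without Sesn1KO immobilized replicate 4. The share of all genes called in these fits is not given here. Since the place of the deletion is not given, the remaining reads do not check the labels.

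**Figure D2:**
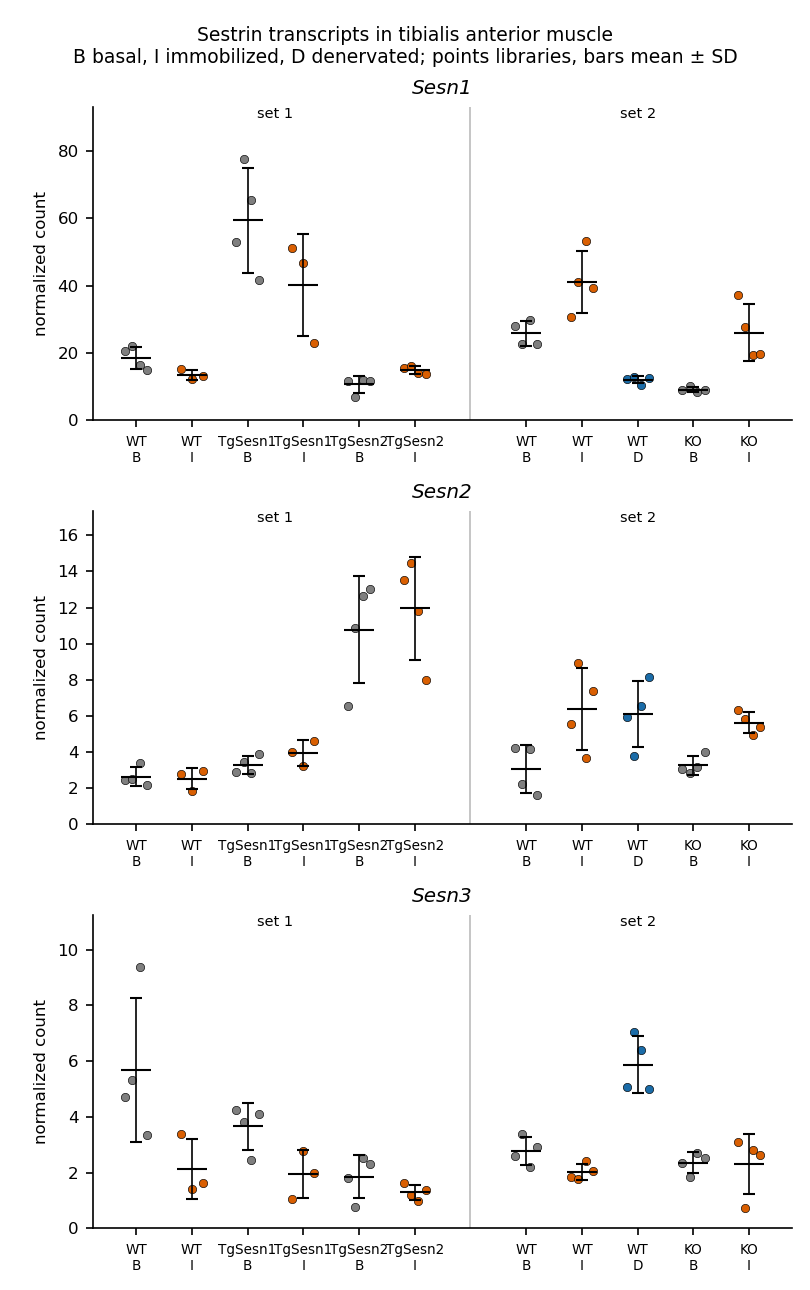
Normalized counts of Sesn1, Sesn2 and Sesn3 (linear axes from 0) in each library of the 11 groups, with bars for mean ± SD. Sesn1 fell from 22.5 to 29.7 in basal WT muscle of set 2 to 10.5 to 12.9 after denervation and rose to 30.7 to 53.1 after immobilization.

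Among the sestrins, denervation and immobilization moved Sesn1 in opposite directions within set 2. Denervated WT muscle held 12.3, 12.9, 10.5 and 12.6 normalized counts, below every basal library, and Sesn1 fell by 1.03 on the log2 scale (SE 0.17, adjusted p = 3.5e-05 by limma). Immobilized WT muscle of the same set lay above every basal library, with a log2 fold change of 0.63 ± 0.17 (adjusted p = 0.0072). The direct contrast of denervated with immobilized muscle was -1.66 ± 0.17 (adjusted p = 2e-07).

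In set 1 the immobilized WT libraries lay lower on average than basal ones, with overlap, and the log2 fold change of Sesn1 was -0.41 ± 0.24 (adjusted p = 0.20). When all of the least alike libraries were left out, a choice made after seeing the data, Sesn1 fell here (-0.50 ± 0.17, adjusted p = 0.027 by limma). Of those libraries only WT basal replicate 4 belongs to this comparison. The others, of transgenic muscle, act through the shared estimate of spread. The value without the first 2 alone is not given here. The result for set 1 thus depended on those libraries. A fit over all 42 libraries, added after seeing the data, tested whether the WT effect of immobilization differed between sets. For Sesn1 the difference, set 1 minus set 2, was -1.04 ± 0.30 (adjusted p = 0.032). It was lost in 8 of 15 fits that left out 1 library, with an adjusted p of up to 0.083. Muscle labelled Sesn1KO of set 2 rose in its remaining Sesn1 reads by 1.36 ± 0.17 after immobilization (adjusted p = 3e-06), with no overlap. That rise did not pass as different from the WT rise (difference 0.73 ± 0.25, adjusted p = 0.43).

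Sesn2, the most stress-inducible sestrin, was 4.24, 2.21, 4.18 and 1.64 in basal WT muscle of set 2. It was 5.57, 8.92, 3.65 and 7.39 after immobilization and 5.97, 3.76, 6.56 and 8.16 after denervation. Of each treated group 1 library lay within the basal range, and both changes passed, at 0.87 ± 0.24 (adjusted p = 0.0082 by limma) and 0.83 ± 0.24 (adjusted p = 0.0060). In muscle labelled Sesn1KO, Sesn2 rose by 0.64 ± 0.24 (adjusted p = 0.042), a call lost on leaving out any of 6 libraries. In WT muscle of set 1 the change was -0.05 ± 0.22.

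Sesn3 was 2.58, 3.38, 2.20 and 2.92 in basal WT muscle of set 2 and 5.07, 7.05, 6.39 and 4.99 after denervation. The groups did not overlap, and Sesn3 rose by 0.86 ± 0.21 (adjusted p = 0.0016 by limma), opposite to Sesn1. In set 1, WT basal libraries held 4.72, 5.32, 9.37 and 3.34 and immobilized ones 3.37, 1.41 and 1.62. Here the groups overlapped and Sesn3 fell by 1.07 (SE 0.29, adjusted p = 0.0086), a call lost without WT immobilized replicate 3 (adjusted p = 0.053). In Sesn2SkM-Tg basal muscle Sesn3 was 1.82, 0.768, 2.51 and 2.30, below every WT basal library, with a log2 difference of -1.21 ± 0.27 (adjusted p = 0.016). That call was lost without TgSesn2 basal replicate 2 or WT basal replicate 3 and when the fit held no other groups, and it passed with the 2 least alike libraries left out (-1.17 ± 0.26, adjusted p = 0.019).

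Across the whole network, immobilization lowered more members than it raised in every group of set 1 but not in WT muscle of set 2. In WT muscle of set 1, 2 members rose (4.35%, against 14.9% of all genes) and 12 fell (26.1%, against 14.5%), and the median log2 fold change was -0.32, against 0.00 over all genes. In Sesn1SkM-Tg muscle no member rose (against 18.2% of genes) and 16 fell (34.8%, against 16.5%). In Sesn2SkM-Tg muscle 2 rose (against 15% of genes) and 13 fell (28.3%, against 15.7%).

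In WT muscle of set 2, 9 rose and 9 fell (19.6% each, against 16.2% higher and 17.7% lower among all genes). In muscle labelled Sesn1KO 11 rose (23.9%, against 17.2%) and 13 fell (28.3%, against 19.9%). Without the 2 least alike libraries, 2 members rose and 16 fell in WT muscle of set 1 (39.1% called, against 35% of all genes), 1 and 23 in Sesn1SkM-Tg (52.2%, against 42.2%) and 2 and 16 in Sesn2SkM-Tg (39.1%, against 37.7%), so that the share called lay near that of all genes in WT and Sesn2SkM-Tg muscle. Those lower among all genes were 18.3%, 21.6% and 20.2%. Without all 3 libraries 0 rose and 13 fell in Sesn1SkM-Tg muscle (28.3%, against 29.5%), 2 and 17 in WT (41.3%, against 37.1%) and 2 and 16 in Sesn2SkM-Tg (39.1%, against 38.9%). Single libraries moved the counts further. In WT muscle of set 1, 4 members were called without WT immobilized replicate 3 and 8 without WT immobilized replicate 2. Without WT basal replicate 2 there were 9. Sesn1SkM-Tg muscle had 8 without TgSesn1 immobilized replicate 3. The share of all genes called in these fits is not given here, so the swings cannot be set against those of all genes.

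Markers of other cells moved beside these counts. In WT muscle of set 1 all 6 macrophage and leukocyte markers rose, with summed levels of 36.8 to 56.0 in basal and 176.0 to 352.5 in immobilized libraries, and in Sesn1SkM-Tg muscle the 6 rose from 25.9 to 53.1 up to 141.1 to 388.4. In WT muscle of set 2, 1 of 6 rose (32.3 to 137.7 in basal and 101.6 to 199.9 in immobilized libraries), and in Sesn2SkM-Tg muscle 2 of 6 rose. Summed fast fiber markers were lower after immobilization in set 1 WT (67870 to 83610, against 104900 to 129500).

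In WT muscle the calls for markers of other tissue cells also differed between the sets, a difference that was not tested. Of 4 fibroblast markers 3 rose in WT muscle of set 1 (summed levels of 311.2 to 733.7 in basal and 718.2 to 1306 in immobilized libraries), as did 3 of 4 Schwann cell markers (8.161 to 19.14 and 23.8 to 52.46), and of 4 endothelial markers 2 rose and 1 fell. In set 2 none of the fibroblast or Schwann cell markers passed in WT muscle, all 4 endothelial markers fell (227.4 to 291.0 in basal and 123.8 to 200.7 in immobilized libraries), and 2 of 4 slow fiber markers rose. In Sesn1SkM-Tg muscle 4 fibroblast and 4 Schwann cell markers rose, and in Sesn2SkM-Tg muscle 0 and 3. Endothelial markers rose in both of these groups (3 of 4 each), and so did slow fiber markers (2 and 3 of 4). No slow fiber marker passed in WT of set 1 or in Sesn1KO-labelled muscle. In the latter 1 fibroblast, 2 Schwann cell and 2 endothelial markers fell. The part of these cells in the network's values was not tested.

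**Figure D3:**
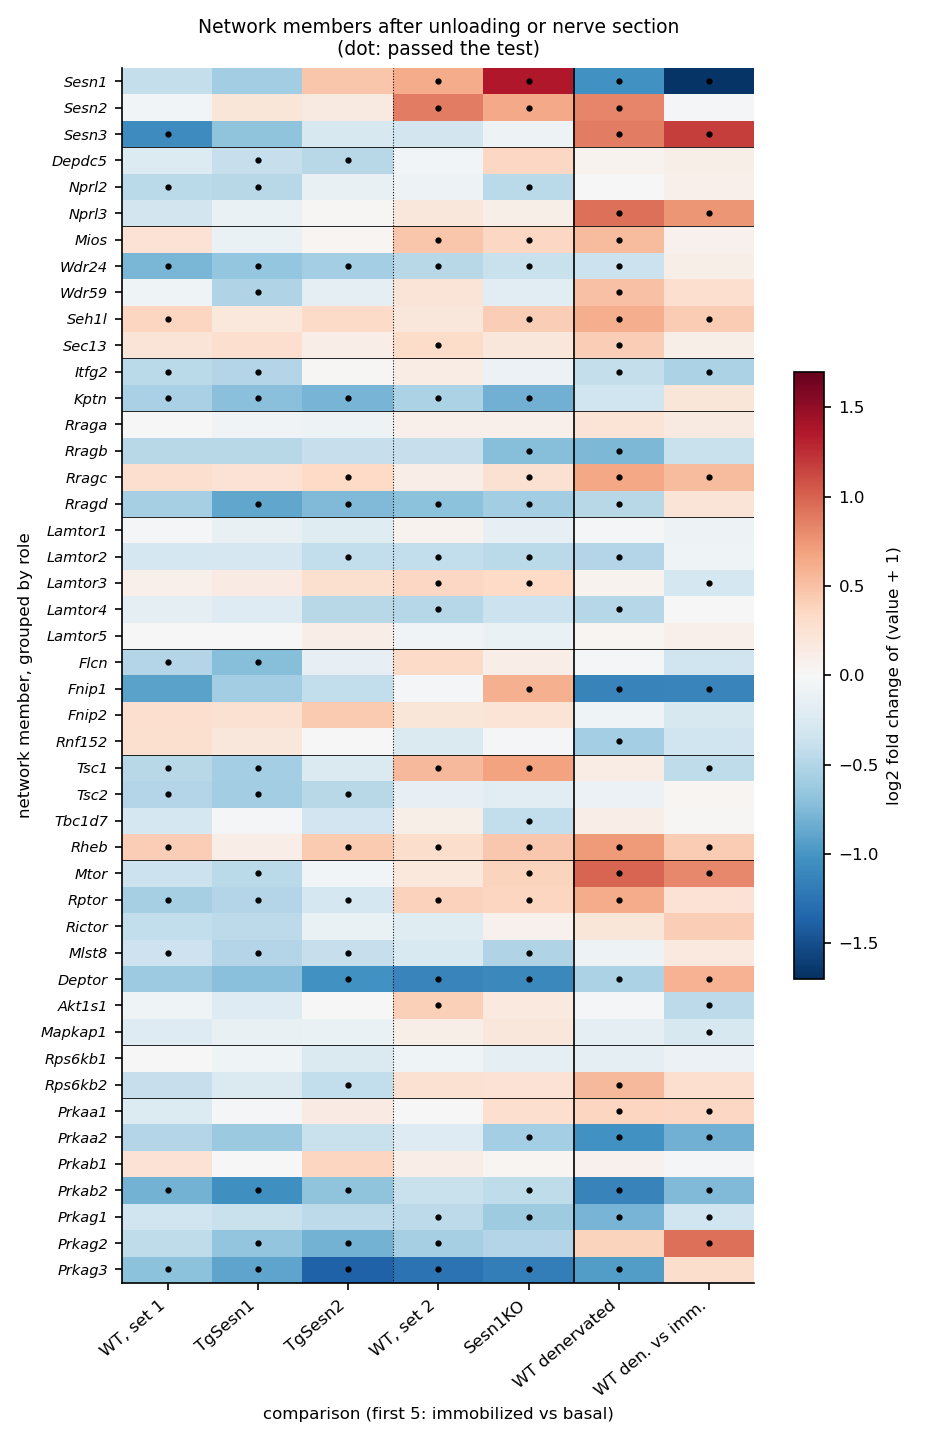
Log2 fold changes of (value + 1) for the 46 members, grouped by role, after immobilization in 5 groups of mice and after denervation, with dots for members that passed the test. Wdr24, Kptn and Prkag3 are lower with a dot in all 5 immobilization columns, and Tsc1 and Rptor are lower in WT muscle of set 1 and higher in set 2.

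GATOR1 is built of Depdc5, Nprl2 and Nprl3. After denervation Nprl3 rose by 0.94 ± 0.10 on the log2 scale (adjusted p = 6.4e-08 by limma), from 15.1, 12.2, 12.4 and 12.7 to 25.5, 29.3, 24.1 and 25.2, with no overlap. Depdc5 and Nprl2 did not pass (adjusted p of 0.80 and 0.98). After immobilization Nprl2 fell in WT muscle of set 1 (-0.46 ± 0.14), in Sesn1SkM-Tg (-0.48 ± 0.14) and in muscle labelled Sesn1KO (-0.46 ± 0.12). The first of these calls was lost without WT immobilized replicate 1 and the second without TgSesn1 immobilized replicate 3. Depdc5 fell in Sesn1SkM-Tg (-0.40 ± 0.15) and Sesn2SkM-Tg muscle (-0.47 ± 0.14), calls that were also lost without some libraries.

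GATOR2 has Mios, Wdr24, Wdr59, Seh1l and Sec13, the last pair being shared with the nuclear pore. Wdr24, which carries the ubiquitin ligase activity of the complex, fell in all 5 immobilization comparisons, by 0.78, 0.66 and 0.58 in WT, Sesn1SkM-Tg and Sesn2SkM-Tg muscle of set 1 and by 0.47 and 0.38 in WT and Sesn1KO-labelled muscle of set 2. Its values in set 1 were 15.5, 13.6, 13.5 and 20.7 in WT basal and 9.63, 10.005 and 6.72 in WT immobilized muscle, without overlap. The 3 calls of set 1 held in every alternative, but that of WT set 2 was lost without WT basal replicate 3 or 4 or WT immobilized replicate 3 or when the fit held no other groups, and that of the Sesn1KO-labelled muscle in 7 of 8 other settings and without any of 6 libraries.

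Denervation raised the other 4 GATOR2 members. Seh1l rose by 0.61 ± 0.10, Mios by 0.54 ± 0.10, Wdr59 by 0.50 ± 0.12 and Sec13 by 0.42 ± 0.09 (adjusted p of 2.7e-05, 0.00016, 0.00088 and 0.00053 by limma), each without overlap between denervated and basal libraries. Wdr24 was -0.36 ± 0.15 (adjusted p = 0.044), a call lost without any of 7 of the 8 libraries. Within 1 complex, Wdr24 and its partners thus had changes of opposite sign after denervation. After immobilization Wdr59 fell together with Wdr24 in Sesn1SkM-Tg muscle (-0.51 ± 0.13, adjusted p = 0.0053 by limma). Seh1l rose in WT of set 1 (0.37 ± 0.14) and in Sesn1KO-labelled muscle (0.42 ± 0.10), and Sec13 rose in WT of set 2 (0.32 ± 0.09). The WT calls of Seh1l and Sec13 were lost without some libraries. Mios also rose after immobilization in set 2 (0.47 ± 0.10 in WT and 0.36 ± 0.10 in Sesn1KO-labelled muscle) and was 0.24 ± 0.19 in WT of set 1.

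KICSTOR, which ties GATOR1 to the lysosome, was covered by Kptn and Itfg2. Kptn fell in all 5 immobilization comparisons, by 0.56 ± 0.18, 0.71 ± 0.18 and 0.79 ± 0.17 in WT, Sesn1SkM-Tg and Sesn2SkM-Tg muscle of set 1 and by 0.54 ± 0.15 and 0.82 ± 0.15 in WT and Sesn1KO-labelled muscle of set 2. Its WT values in set 2 were 8.06, 12.4, 9.47 and 10.5 in basal and 6.61, 6.84, 5.79 and 6.999 in immobilized muscle, without overlap. The call in WT of set 1 was lost without WT basal replicate 4 or WT immobilized replicate 3, whereas the other 4 held in every alternative. After denervation Kptn was -0.34 ± 0.15 (adjusted p = 0.059). Itfg2 fell in WT (-0.45 ± 0.15) and Sesn1SkM-Tg (-0.50 ± 0.15) muscle of set 1, calls lost without some libraries, and was 0.12 ± 0.15 in WT of set 2.

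Rag GTPases work as pairs of RagA or RagB with RagC or RagD. Rragd fell after immobilization in 4 of the 5 groups of mice (in Sesn1SkM-Tg muscle the call was lost without TgSesn1 immobilized replicate 3, adjusted p = 0.074), for example by 0.69 ± 0.15 in WT of set 2 (adjusted p = 0.00097 by limma), where values went from 278, 267, 280 and 304 to 171, 190, 162 and 174 without overlap. In WT of set 1 it was -0.57 ± 0.23 (adjusted p = 0.072) and without the 2 least alike libraries -0.75 ± 0.17 (adjusted p = 0.0027). Rragc, its paralog, rose after denervation by 0.66 ± 0.09 (adjusted p = 1.7e-06), from 31.7, 25.2, 26.1 and 27.0 to 43.7, 43.7, 44.6 and 43.0. The per-kb ratio of Rragd to Rragc accordingly stood at 6.68 ± 0.702 in basal WT muscle of set 2, 3.80 ± 0.491 after immobilization and 3.04 ± 0.561 after denervation (SD, n = 4 each).

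Rraga, the main RagA gene, passed in none of the comparisons, and its 5 immobilization changes lay between -0.08 and 0.09. After denervation it was 0.23 ± 0.09, under the size set for a call. Rragb fell by 0.77 ± 0.22 after denervation (adjusted p = 0.0046 by limma), from 2.55, 2.76, 2.23 and 3.02 to 1.23, 0.514, 1.32 and 1.64. It is low, and its split from Rraga is uncertain.

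Ragulator is the lysosomal scaffold of the Rags. Its subunits Lamtor1 and Lamtor5 passed in no comparison. Lamtor2 fell in WT of set 2 after immobilization (-0.42 ± 0.11) and after denervation (-0.49 ± 0.11), and Lamtor4 did so as well (-0.49 ± 0.15 in both). Lamtor3 rose after immobilization in WT of set 2 (0.36 ± 0.12) and in Sesn1KO-labelled muscle (0.33 ± 0.12), both calls being lost without some libraries.

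Folliculin (Flcn) and its partners Fnip1 and Fnip2 act on RagC and RagD and also bind AMPK. Fnip1 was 70.0, 60.6, 93.7 and 97.4 in basal WT muscle of set 2 and 37.1, 33.1, 37.2 and 34.1 after denervation. It fell by 1.14 (SE 0.18, adjusted p = 1.5e-05 by limma), without overlap. Immobilized WT muscle of that set held 67.2, 82.2, 80.2 and 83.8, a change of -0.02 ± 0.18. In Sesn1KO-labelled muscle Fnip1 rose by 0.60 ± 0.18 (adjusted p = 0.012), a call lost without the library labelled Sesn1KO immobilized replicate 3.

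In set 1, Fnip1 depended on the least alike libraries. WT basal replicate 4 held 33.9 where the other 3 held 93.1, 109 and 124, and immobilized WT libraries held 57.1, 37.1 and 36.1. The change was -0.92 ± 0.39 (adjusted p = 0.078 by limma) with all libraries and -1.33 ± 0.21 (adjusted p = 0.00022) without the first 2 of them. Flcn fell in WT (-0.49 ± 0.13) and Sesn1SkM-Tg muscle (-0.72 ± 0.13) of set 1 and was 0.33 ± 0.16 in WT of set 2, and the test of the set difference gave -0.82 ± 0.21 (adjusted p = 0.016), a call lost in 1 of 15 fits without 1 library and in 1 of 4 other settings. Without WT immobilized replicate 3 the fall in WT muscle had an adjusted p of 0.076. Rnf152 fell after denervation (-0.58 ± 0.15) and Fnip2 passed in no comparison.

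The TSC complex turns Rheb off, and 1 of its subunits moved in opposite directions in the 2 sets. Tsc1, the scaffold of the TSC complex, was 77.3, 94.4, 74.2 and 85.7 in basal and 77.0, 55.0 and 48.4 in immobilized WT muscle of set 1. In set 2 it was 56.7, 55.8, 54.3 and 54.1 in basal and 93.6, 82.5, 83.1 and 68.5 in immobilized WT muscle, without overlap. The changes were -0.48 ± 0.18 (adjusted p = 0.047 by limma) and 0.55 ± 0.11 (adjusted p = 0.00057), and their difference was -1.03 ± 0.21 (adjusted p = 0.0027), which held in all 19 alternatives tried. The call in set 1 alone was lost without any of 5 libraries, whereas that in set 2 held in every alternative.

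Rptor also moved in opposite directions. It was 46.9, 51.0, 48.1 and 58.1 in basal and 34.9, 36.5 and 31.1 in immobilized WT muscle of set 1, and 40.9, 36.8, 38.4 and 37.6 in basal and 47.1, 57.4, 51.8 and 46.5 in immobilized WT muscle of set 2. Neither pair of groups overlapped, and Rptor fell by 0.56 (SE 0.12, adjusted p = 0.0017 by limma) in set 1 and rose by 0.39 (SE 0.09, adjusted p = 0.0025) in set 2. The difference between sets was -0.95 ± 0.14 (adjusted p = 0.00023) and also held in all 19 alternatives.

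Of the 46 members 5 were called for a difference between sets, against 6.2% of the genes tested. For all 5 the effect was lower in set 1, but the share of all genes with that direction is not given here. The other was Rps6kb2 (-0.65 ± 0.19, adjusted p = 0.033), beside Sesn1 and Flcn above, and its call was lost in 7 of 15 fits without 1 library and in 2 of 4 other settings (adjusted p of up to 0.088). Basal levels also lay apart, Tsc1 and Rptor being higher in every WT basal library of set 1 (from 74.2 and 46.9) than in any of set 2 (up to 56.7 and 40.9). The sources used here do not say how the sets came about, and the WT mice and the set of libraries cannot be told apart. Since levels set side by side across sets rest on the authors' normalization, their part in the difference was not tested.

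**Figure D4:**
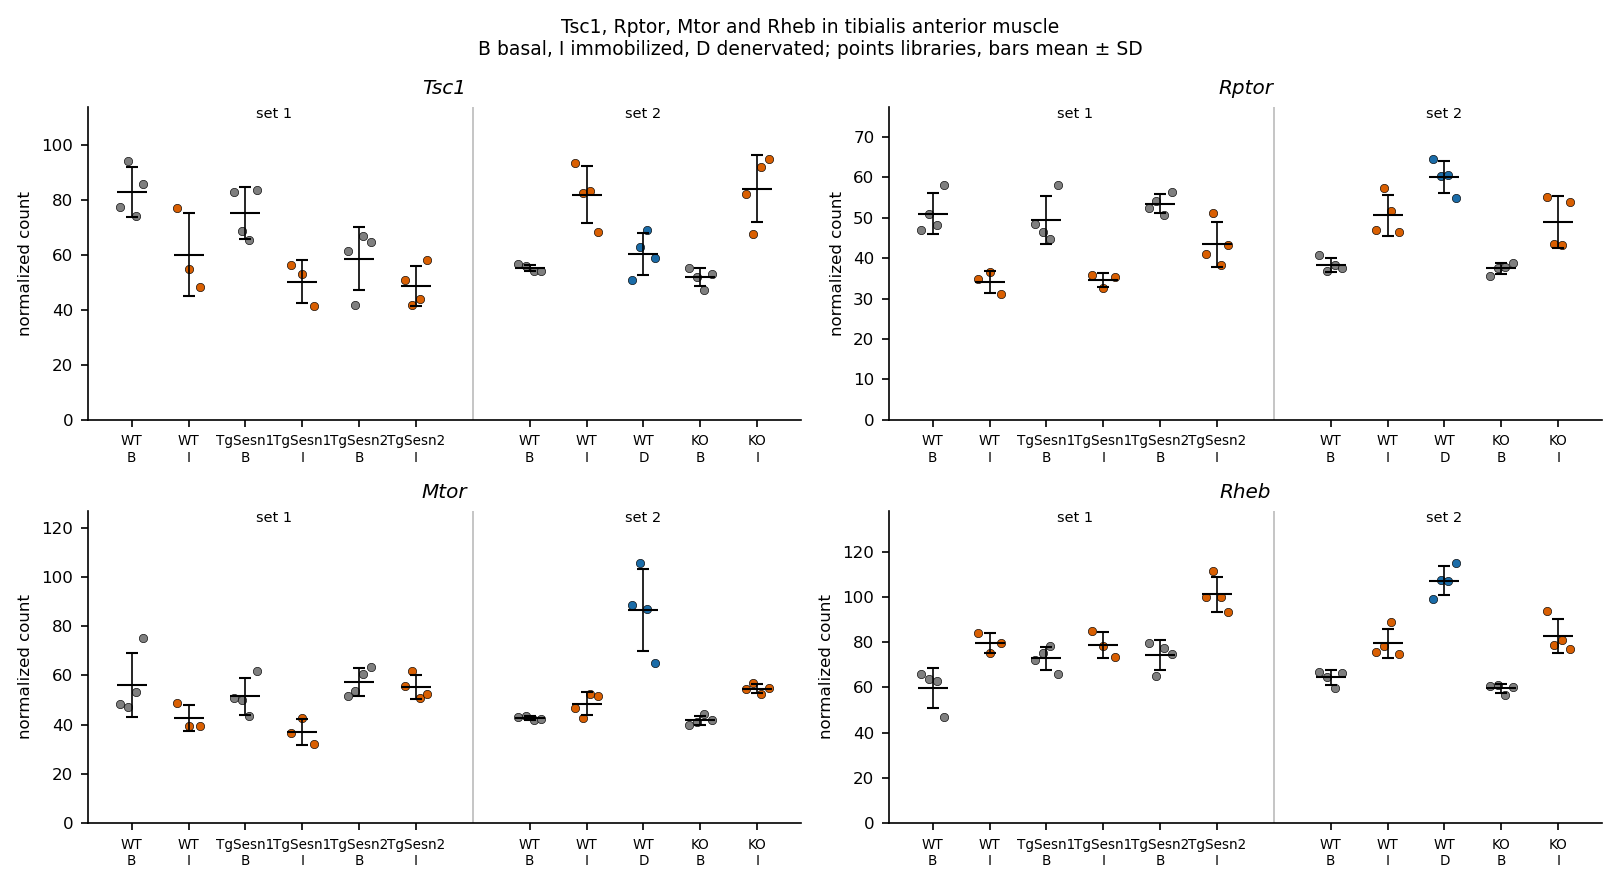
Normalized counts of Tsc1, Rptor, Mtor and Rheb (linear axes from 0) in each library, with bars for mean ± SD. Tsc1 and Rptor go down with immobilization in WT muscle of set 1 and up in set 2, and Mtor reaches 65.1 to 106 in denervated muscle.

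Tsc2, the GTPase-activating subunit, fell in the 3 groups of set 1, by 0.50 ± 0.12, 0.60 ± 0.12 and 0.47 ± 0.11, and all 3 calls held in every alternative. In WT of set 2 it was -0.14 ± 0.11 and after denervation -0.11 ± 0.11. Tbc1d7, the third TSC subunit, fell in Sesn1KO-labelled muscle (-0.42 ± 0.10, adjusted p = 0.0014 by limma) and was 0.09 ± 0.10 in WT muscle, and the difference between these effects did not pass (-0.52 ± 0.14, adjusted p = 0.24).

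Rheb, the direct activator of mTORC1, rose in 4 of 5 immobilization comparisons and after denervation. In WT of set 2 it was 66.8, 64.8, 59.7 and 66.5 in basal, 75.7, 78.3, 88.8 and 74.9 in immobilized and 99.2, 107, 107 and 115 in denervated muscle. The 3 groups did not overlap, and the log2 fold changes were 0.30 ± 0.08 (adjusted p = 0.0060 by limma) and 0.72 ± 0.08 (adjusted p = 1.1e-07). Quantile normalization, or leaving out WT immobilized replicate 3, ended the first of these calls. In set 1 Rheb rose in WT (0.42 ± 0.12, lost without WT immobilized replicate 3) and Sesn2SkM-Tg muscle (0.44 ± 0.11) and was 0.11 ± 0.12 in Sesn1SkM-Tg muscle.

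Mtor rose with loss of the nerve. It was 43.0, 43.5, 41.7 and 42.3 in basal WT muscle of set 2 and 88.7, 106, 87.1 and 65.1 after denervation, without overlap, a log2 fold change of 0.99 ± 0.11 (adjusted p = 9.1e-08 by limma). Immobilized WT muscle held 46.9, 42.5, 52.6 and 51.7, which overlapped with basal muscle (0.17 ± 0.11, adjusted p = 0.21), and denervated exceeded immobilized muscle by 0.81 ± 0.11 (adjusted p = 3.6e-06). After immobilization Mtor fell in Sesn1SkM-Tg muscle (-0.46 ± 0.15, lost without any of 3 libraries) and rose in Sesn1KO-labelled muscle (0.38 ± 0.11). Rptor also rose after denervation, by 0.63 ± 0.09. Mlst8, a subunit of both mTOR complexes, was -0.09 ± 0.13 after denervation and fell after immobilization in 4 of 5 groups, by 0.36 to 0.51. The call in WT of set 1 (-0.36 ± 0.13) was lost without any of 5 libraries.

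Deptor, an inhibitor bound to mTOR, fell after immobilization by 1.13 ± 0.22 in WT (adjusted p = 0.00052 by limma) and 1.09 ± 0.22 in Sesn1KO-labelled muscle of set 2, and by 1.03 ± 0.30 in Sesn2SkM-Tg muscle, where the call was lost without TgSesn2 basal replicate 4 or TgSesn2 immobilized replicate 2 (adjusted p of 0.053 and 0.051). After denervation it was -0.54 ± 0.22 (adjusted p = 0.044), a call lost without any of 7 libraries. Akt1s1, which encodes the inhibitor PRAS40, rose after immobilization in WT of set 2 (0.41 ± 0.10). Of the mTORC2 subunits, Rictor passed in no comparison with all libraries (-0.72 ± 0.23, adjusted p = 0.023, in immobilized WT muscle of set 1 without the 2 least alike libraries) and Mapkap1 only in denervated against immobilized muscle (-0.27 ± 0.10, lost without some libraries). Of the S6 kinases, Rps6kb1 passed in no comparison and Rps6kb2 rose after denervation (0.55 ± 0.12).

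Of the 7 AMPK subunits, 2 to 4 fell and 0 rose in each immobilization comparison, and 4 fell and 1 rose after denervation. Among all genes 14.5% to 19.9% fell and 14.9% to 18.2% rose in the immobilization comparisons. After denervation 27.7% of all genes fell and 27.8% rose. Prkag3 was the only subunit to fall in all 5 immobilization comparisons and after denervation. In WT of set 2 it was 125, 125, 123 and 154 in basal, 76.9, 41.6, 41.5 and 66.0 in immobilized and 68.7, 51.9, 71.0 and 81.4 in denervated muscle. Both treated groups lay below every basal library, with changes of -1.25 ± 0.29 (adjusted p = 0.0020 by limma) and -0.95 ± 0.29 (adjusted p = 0.0082). In WT muscle of set 1 the fall of 0.70 ± 0.25 was lost under quantile normalization and without any of 4 libraries, and in Sesn1SkM-Tg muscle that of 0.90 ± 0.25 without TgSesn1 immobilized replicate 3.

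**Figure D5:**
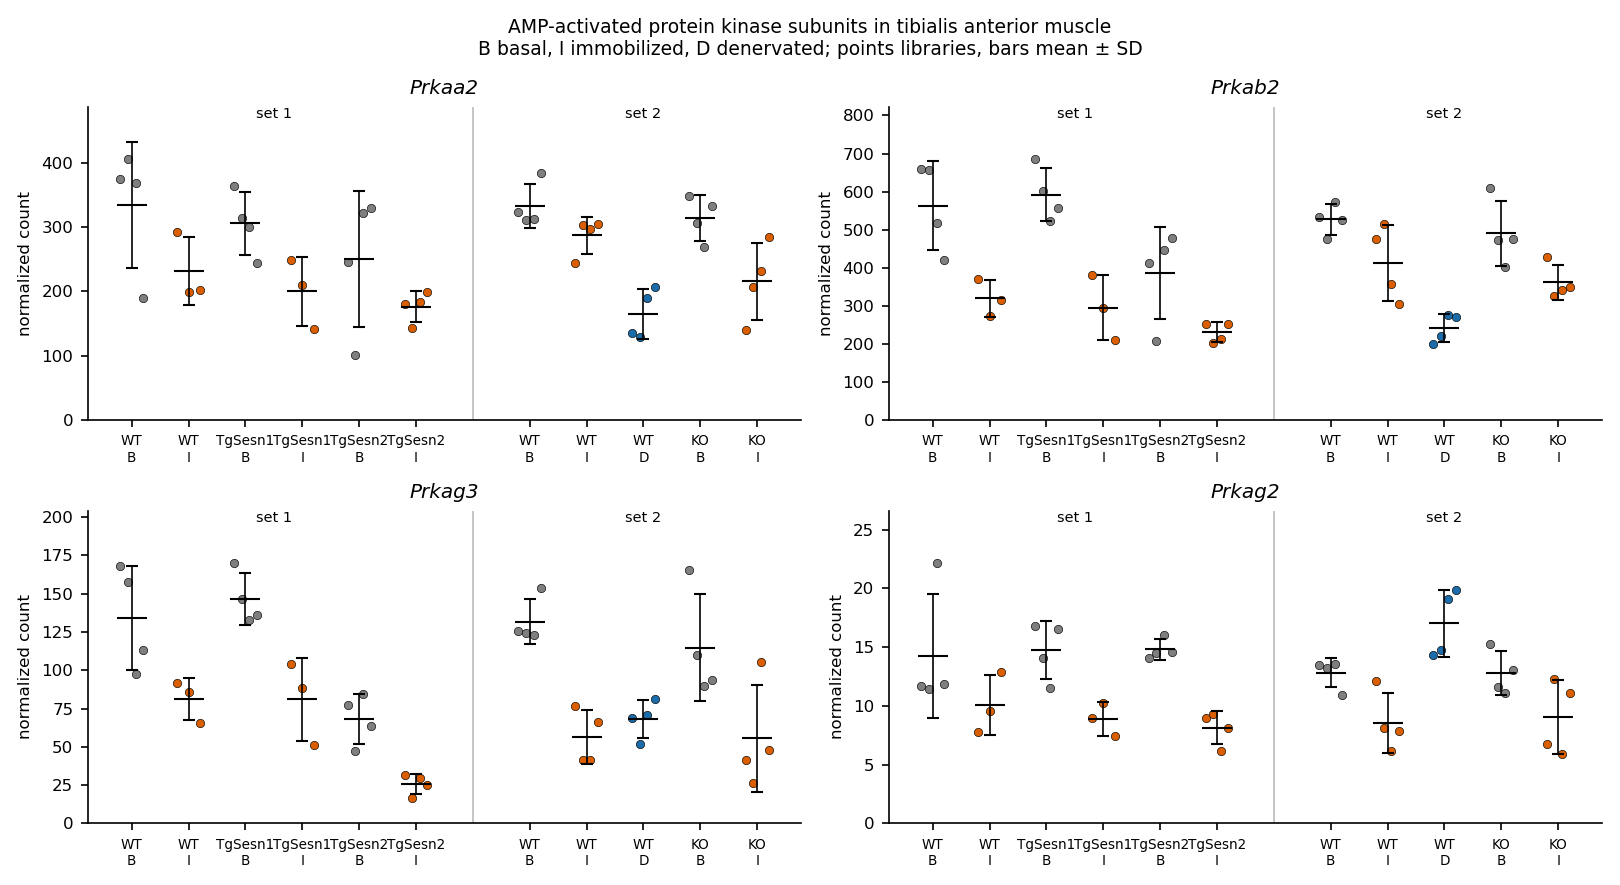
Normalized counts of Prkaa2, Prkab2, Prkag3 and Prkag2 (linear axes from 0) in each library, with bars for mean ± SD. In set 2 Prkab2 goes from 475 to 572 in basal WT muscle down to 201 to 275 after denervation, and Prkag3 is lowest in immobilized Sesn2SkM-Tg muscle (16.8 to 31.5).

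Prkab2 fell after denervation from 534, 475, 572 and 526 to 201, 220, 275 and 270, and Prkaa2 from 323, 311, 313 and 384 to 135, 128, 190 and 206. Neither overlapped, and the changes were -1.13 ± 0.15 (adjusted p = 1.9e-06 by limma) and -1.03 ± 0.17 (adjusted p = 3e-05). After immobilization Prkab2 fell in the 3 groups of set 1 and in Sesn1KO-labelled muscle, of which the Sesn1SkM-Tg call (-1.04 ± 0.24) held in every alternative, and in WT of set 2 it was -0.38 ± 0.15 (adjusted p = 0.056). Prkaa2 was -0.21 ± 0.17 in WT of set 2 and fell in Sesn1KO-labelled muscle (-0.58 ± 0.17), a call lost without the library labelled Sesn1KO immobilized replicate 1. In set 1 it was -0.49 ± 0.32, -0.63 ± 0.32 and -0.37 ± 0.29 in WT, Sesn1SkM-Tg and Sesn2SkM-Tg muscle and did not pass. Without the 3 least alike libraries it fell in WT (-0.745 ± 0.168, adjusted p = 0.0024 by limma) and did not pass in Sesn1SkM-Tg muscle (-0.40 ± 0.18).

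The paralogs Prkaa1 and Prkab1 did not fall after denervation, where Prkaa1 was 0.36 ± 0.14 (adjusted p = 0.030 by limma, lost without any of 4 libraries) and Prkab1 0.07 ± 0.15. The per-kb ratio of Prkaa2 to Prkaa1 was 12.8 ± 0.615 in basal and 4.93 ± 1.52 in denervated WT muscle, and that of Prkab2 to Prkab1 at 37.2 ± 1.77 and 16.1 ± 2.88 (SD, n = 4 each). Prkag1 fell by 0.79 ± 0.09 after denervation and by 0.45 ± 0.09 after immobilization in WT of set 2. Prkag2 fell after immobilization in that set (-0.56 ± 0.20, lost without any of 6 libraries), in Sesn1SkM-Tg (-0.67 ± 0.21, lost without TgSesn1 immobilized replicate 3) and in Sesn2SkM-Tg muscle (-0.80 ± 0.19). It was 0.38 ± 0.20 after denervation, and denervated exceeded immobilized muscle by 0.94 ± 0.20 (adjusted p = 0.00070). Fast fiber markers fell too after denervation (6 of 6, summed levels of 45170 to 60430 against 115000 to 126800 in basal muscle), and their part in these values was not tested.

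In Sesn2SkM-Tg muscle Prkag3 stood below WT before and after immobilization. It was 77.0, 47.5, 84.4 and 63.8 in basal and 31.5, 16.8, 29.9 and 24.7 in immobilized Sesn2SkM-Tg muscle, against 168, 158, 97.6 and 113 and 91.6, 86.0 and 65.7 in WT. No libraries overlapped in either state. The difference after immobilization was -1.64 ± 0.25 (adjusted p = 0.0014 by limma) and held in every alternative. The basal difference of -0.96 ± 0.23 (adjusted p = 0.025) was lost without TgSesn2 basal replicate 2 or 4 or WT basal replicate 1 or 2. It was also lost when the fit held no other groups (adjusted p = 0.1) and with the 2 least alike libraries left out. With all 3 left out it passed (-0.87 ± 0.21, adjusted p = 0.030). Beside these values 0 of 6 fast fiber markers passed between Sesn2SkM-Tg and WT muscle in either state. After immobilization 1 of 4 slow fiber markers was higher (3 at an unadjusted p under 0.05, median log2 difference 1.2025, summed levels of 14.04 to 76.36 against 6.093 to 17.98) and 2 of 6 macrophage and leukocyte markers were lower (median -1.18), and in the basal state none of either passed. Their part in the Prkag3 values was not tested.

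Besides Sesn2, Sesn3 and Prkag3 no member was called between Sesn2SkM-Tg and WT muscle in the basal state, where 2.5% of genes were called, and after immobilization Sesn2 and Prkag3 were called where 2.94% of genes were. The basal count was 1 without TgSesn2 basal replicate 2 and 9 without WT basal replicate 4 (share of all genes not given here). Without both, 3 members were called in the basal state (Sesn2, Sesn3 and Akt1s1, 6.52% against 3.27% of all genes) and 5 after immobilization (10.9%, against 7.89%), the added ones being Flcn (0.45 ± 0.11), Rheb (0.34 ± 0.09) and Akt1s1 (0.48 ± 0.09), all higher in Sesn2SkM-Tg muscle. Without all 3 least alike libraries 5 were called in the basal state (10.9%, against 3.73%) and 6 after immobilization (13%, against 8.97%).

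Whether a sestrin genotype changed the response to immobilization was tested by the interaction. No member passed for Sesn1SkM-Tg, Sesn2SkM-Tg or Sesn1KO-labelled muscle, where 0%, 0.0073% and 0.022% of all genes did. At an unadjusted p under 0.05 there were 1, 2 and 4 members. Estimates lay between -0.44 and 0.39, between -0.68 and 0.88 and between -0.52 and 0.73 on the log2 scale. For Rptor, for example, the 95% intervals were -0.28 to 0.42, -0.07 to 0.60 and -0.29 to 0.25.

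Denervation moved 27 members. In WT of set 2, 13 members rose (28.3%, against 27.8% of all genes) and 14 fell (30.4%, against 27.7%), which is close to the share among all genes. Those that rose were, by size, Mtor, Nprl3, Sesn3, Sesn2, Rheb, Rragc, Rptor, Seh1l, Rps6kb2, Mios, Wdr59, Sec13 and Prkaa1. Those that fell were Fnip1, Prkab2, Sesn1, Prkaa2, Prkag3, Prkag1, Rragb, Rnf152, Deptor, Lamtor2, Lamtor4, Rragd, Itfg2 and Wdr24. In 23 of the 27 the call held in every alternative, the exceptions being Wdr24, Itfg2, Deptor and Prkaa1.

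Set against immobilized muscle of the same set, denervated muscle was higher for 9 members (19.6%, against 20.5% of genes) and lower for 10 (21.7%, against 18.4%). The widest of these differences were Sesn1 (-1.66 ± 0.17), Sesn3 (1.18 ± 0.21), Fnip1 (-1.12 ± 0.18), Prkag2 (0.94 ± 0.20), Prkaa2 (-0.82 ± 0.17) and Mtor (0.81 ± 0.11). Tsc1, which rose with immobilization, was lower in denervated than in immobilized muscle (-0.43 ± 0.11), and Seh1l was higher (0.43 ± 0.10). Of 6 macrophage and leukocyte markers 3 were lower in denervated than in immobilized muscle, and their part in these values was not tested.

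Over the 16 comparisons within sets, 7 members were never called, namely Rraga, Lamtor1, Lamtor5, Fnip2, Rictor, Rps6kb1 and Prkab1. The share of all genes never called was not worked out. Wdr24, Kptn and Prkag3 were called lower in all 5 immobilization comparisons (6.52% of members, against 5.69% of the 13571 genes tested in both sets), none was higher in all 5 (against 3.13%), and 11 were called in none of the 5 (23.9%, against 32%). Nprl3, Rnf152 and Prkaa1 were called after denervation and in no immobilization comparison, and the share of all genes with that pattern was not worked out either. Tsc1, Rptor and Mtor were called in both directions among the immobilization comparisons (6.52%, against 3.85% of genes).

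Other genes of the pathway were read from a list of 25 regulators upstream of the network, of which 23 were in the table. After denervation 8 rose (34.8%, against 27.8% of all genes) and 5 fell (21.7%, against 27.7%). After immobilization 4 rose (17.4%, against 16.2%) and 2 fell (8.7%, against 17.7%) in WT of set 2, and 4 rose and 4 fell (17.4% each, against 14.9% and 14.5%) in WT of set 1. Akt1, an upstream kinase, rose by 0.99 ± 0.18 and 1.10 ± 0.18 after immobilization in WT of sets 1 and 2 and by 1.72 ± 0.18 after denervation (adjusted p of 0.00048, 9.4e-05 and 8.4e-08 by limma). Castor2, listed under an older symbol and encoding an arginine sensor partner, rose by 1.43 ± 0.12 after denervation, and Lars, a leucyl-tRNA synthetase, by 1.07 ± 0.10. Ddit4l, an inhibitor of mTORC1 in muscle, fell by 1.84 ± 0.29 after immobilization and 2.31 ± 0.29 after denervation in set 2. Between Sesn2SkM-Tg and WT muscle, Castor2 was lower by -1.05 ± 0.17 in the basal state and -1.36 ± 0.18 after immobilization.

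Of 17 targets downstream of mTORC1, 6 rose (35.3%, against 27.8% of all genes) and 7 fell (41.2%, against 27.7%) after denervation. After immobilization 5 rose (29.4%, against 16.2%) and 2 fell (11.8%, against 17.7%) in WT of set 2, and 2 rose (11.8%, against 14.9%) and 3 fell (17.6%, against 14.5%) in WT of set 1. Eif4ebp1, the translation repressor that mTORC1 phosphorylates, rose in every immobilization comparison, by 1.94 to 2.27, and after denervation by 2.28 ± 0.21 (adjusted p = 1.1e-08 by limma). Its partner Eif4e, the cap-binding factor, fell in all of them, by 0.56 to 0.69 after immobilization and by 0.70 ± 0.10 after denervation. Rps6, a ribosomal protein and S6 kinase target, rose by 0.45 ± 0.08 after immobilization in WT of set 2 and by 0.84 ± 0.08 after denervation. Ulk1, an autophagy kinase, fell in WT (-0.89 ± 0.18) and Sesn1SkM-Tg (-1.15 ± 0.18) muscle of set 1. RNA levels were measured and not the phosphorylation state of these proteins.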

How the data were processed

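Normalized counts (unit signal) of 13809 genes in 42 TA libraries were deposited by the authors. According to the study, reads from NEBNext Ultra libraries were trimmed with cutadapt 1.7.1, quantified with RSEM 1.2.20 against the mouse transcriptome GRCm38 and normalized with limma. Linear values are not whole, and the depth behind them is unknown, so no counting error, count test or floor was used. Groups came from the sample titles. limma 3.58.1 in R 4.3.3 (lmFit, contrasts.fit, eBayes with trend) was run per set on log2(value + 1) for genes at 1 or more in at least 1 library of the set. Calls needed an adjusted p under 0.05 and a log2 fold change of 0.25 in size. The fit was tested on simulated data in which 200 genes were changed. Of genes with a log2 fold change of 1, 71% (set 1) and 90.5% (set 2) were recovered in the WT immobilization comparison. Of those with 0.5, 0% and 34.5% were recovered. In the data 29.3% and 33.9% of all genes were called there, so the adjustment for many tests was stricter in the simulation. These shares are therefore not the sensitivity of the fit in the data. Values per kb used the union of annotated exons. Members and lists were chosen with earlier results of these data known. All 46 members may be named, and other genes come only from fixed lists. The values of 1 listed gene are not reported here. The set-difference fit and leaving out 2 or 3 libraries were added after seeing the data. Promoters came from RefSeq (GRCm38.p6).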

Additional observations from a re-analysis of the deposited data

Results flagged for a closer look

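In groups of 4 libraries, a member was looked at again when 1 library lay far from the other 3 by Dixon's 95% criterion on the gap to the nearest library. This happened in 27 of 414 cases (6.52%), where chance flags about 1 in 20 groups (20.7 cases). WT basal replicate 4 of set 1 held 8 of them. It was high for Kptn (13.27, others 8.276 to 8.863), Lamtor1 (96.24), Lamtor4 (32.97), Tbc1d7 (20.68) and Mapkap1 (58.84), and low for Rheb (46.84, others 62.91 to 65.95), Rictor (10.14) and Rps6kb1 (20.88, others 46.08 to 48.44). TgSesn2 basal replicate 2 held 5, being low for Sesn1 (6.997), Fnip1 (29.34, others 88.49 to 97.84) and Rictor (6.289) and high for Depdc5 (13.05) and Akt1s1 (164.4).

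WT basal replicate 4 of set 2 was high for Prkaa2 (383.9) and Prkag3 (153.7) and low for Prkag2 (10.96), and replicate 1 of that group was high for Tsc2 (92.13). In immobilized WT muscle of set 2, replicate 1 was low for Seh1l (17.16) and Prkaa2 (244.0) and replicate 2 high for Lamtor3 (46.83). In set 1, WT basal replicate 3 was high for Prkag2 (22.18), TgSesn1 basal replicate 3 for Rraga (49.71) and TgSesn1 basal replicate 4 for Tsc2 (99.42) and Prkag1 (55.06). Among libraries labelled Sesn1KO, immobilized replicate 3 was high for Lamtor1 (92.69), immobilized replicate 2 high for Akt1s1 (107.3) and basal replicate 1 low for Prkab1 (6.324). All of these are normalized counts.

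The WT effect of immobilization differed between sets for 5 members by the fit over both sets. The log2 differences, set 1 minus set 2, were -1.04 for Sesn1, -0.82 for Flcn, -1.03 for Tsc1, -0.95 for Rptor and -0.65 for Rps6kb2. The call was lost without some library for Sesn1 (8 of 15 fits), Rps6kb2 (7) and Flcn (1).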

How the results depend on the processing

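Counts of called members stayed within 1.5 times the reported count, and no count changed direction, under a pseudocount of 0.1, other filters, median centring, quantile normalization, eBayes without a trend, a replicate block and only the compared groups in the fit, apart from the exceptions that follow. With only the compared groups, immobilized WT muscle of set 1 had 7 called members in place of 14, Sesn1SkM-Tg against WT basal muscle 0 in place of 1, and Sesn2SkM-Tg against WT basal muscle 1 in place of 3. Quantile normalization gave 1 in place of 0 for Sesn1SkM-Tg against WT after immobilization. Leaving out the 2 least alike libraries, or all 3, gave 1 for that comparison and 5 or 6 in place of 2 for Sesn2SkM-Tg against WT after immobilization, and leaving out all 3 gave 5 in place of 3 in the basal state.

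Leaving out 1 library at a time gave 4 to 15 called members for immobilized WT muscle of set 1, 8 to 16 for Sesn1SkM-Tg, 0 to 1 for Sesn1SkM-Tg against WT after immobilization, 1 to 9 for Sesn2SkM-Tg against WT in the basal state, 0 to 2 for Sesn1KO-labelled against WT muscle after immobilization and 2 to 6 for the difference between sets (5 reported). The lowest of the last came without WT immobilized replicate 3 of set 1, and 3 were left without WT basal replicate 2 or 4 of set 2. Denervation had 23 to 27, of which 23 to 26 were among the 27 reported. The shares of all genes called in these fits are not given here. Libraries with 1 replicate number did not deviate together throughout (15 of 48 pairs correlated over 0.1, and in 0 of 13 comparisons did every pair). Correlations ran from -0.452 to 0.534, and the highest lay in set 1 (0.534 and 0.505, both Sesn1SkM-Tg against WT). With so few libraries per group this cannot exclude pairing by replicate number. Basal controls were untreated mice according to the methods, so basal and treated muscle came from different mice. The samples were treated as unpaired. With the replicate block the counts were 10 for WT of set 1, 18 for WT of set 2, 25 for denervation and 22 for Sesn1KO-labelled muscle. Without counts, depth limits cannot be stated.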
